A study of Mus musculus with 12 samples.

Results

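Very broad H3K27ac domains were examined in microglia, the resident macrophages of the brain. They were chosen by width alone, as the peaks of at least 10000 bp in the merged H3K27ac peak table, whatever their annotation. This gave 603 of 55862 peaks. Because width is set by the H3K27ac signal itself, the width of the domains and their H3K27ac level against other peaks are given as descriptions and were not tested. The microglia were sorted as CD11b+CD45lo cells from 2-mo-old C57BL/6J mice, either WT or KO, in which eGFP disrupts both copies of *Cx3cr1*. *Cx3cr1* encodes the receptor for the neuronal chemokine fractalkine. All mice were littermates from heterozygous crosses, and the disrupted allele is inherited, so it is not confined to microglia. For each of 2 marks, H3K27ac and the RNA polymerase II subunit Rpb2, each genotype had 2 libraries, made from 3 pooled mice of the sex on the label, 1 female and 1 male (n = 2 pools against 2).

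H3K27ac is laid down by acetyltransferases that transcription factors bring to active promoters and enhancers. Most active elements carry it as a narrow peak, but at some genes neighbouring elements merge into one long acetylated stretch. Such stretches are often found at genes that a cell type expresses strongly and that set it apart, and in macrophages their elements are typically bound by PU.1 together with other factors. Rpb2 is the second largest subunit of RNA polymerase II, so its reads mark where the polymerase sits, both at gene starts and along transcribed or enhancer DNA.

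Libraries held between 10395804 and 44332626 reads. In 3 of the H3K27ac libraries, 61.1% to 65.3% of reads fell in peaks, against 15.9% in the WT library labelled female, which therefore stands apart. The Rpb2 libraries had 11.2% to 15.1% of reads in peaks. The Rpb2 library labelled WT female held 136 reads in peaks of Y-linked genes, against its label, while the KO female Rpb2 library held 0. The WT male and KO male Rpb2 libraries held 214 and 266. Whether sex is balanced between the genotypes in Rpb2 is therefore not known. The library with 136 such reads is called the library labelled WT female throughout and its genotype label was kept. CPM stands for counts scaled to the TMM-normalized sum over all tested peaks of a library, and CPM per kb is used where domains of different width are compared. Where 4 library values stand in a row, their order is WT female, WT male, KO female, KO male, and for Rpb2 the first is the library labelled WT female. The methods describe the 2 pools of a genotype as independent samples, so p values measure the spread between pools and not between mice.

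The 5 stretches of domain sequence that follow are read from the plus strand of mm10 (RefSeq GRCm38.p6). The first set holds the 2 Rpb2 peaks inside domains with the lowest p for KO against WT, trimmed to at most 300 bases around their centres. They are shown because they are where the genotypes differed most inside a domain.
Cx3cr1 domain, lower Rpb2 in KO, chr9:120046422-120046721: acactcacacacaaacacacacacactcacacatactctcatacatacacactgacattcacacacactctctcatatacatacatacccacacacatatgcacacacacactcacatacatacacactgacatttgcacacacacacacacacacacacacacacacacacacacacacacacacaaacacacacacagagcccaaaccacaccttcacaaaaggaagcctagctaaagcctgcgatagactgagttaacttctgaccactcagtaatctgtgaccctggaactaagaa
Ccr1 domain, no Rpb2 reads in KO, chr9:123923569-123923868: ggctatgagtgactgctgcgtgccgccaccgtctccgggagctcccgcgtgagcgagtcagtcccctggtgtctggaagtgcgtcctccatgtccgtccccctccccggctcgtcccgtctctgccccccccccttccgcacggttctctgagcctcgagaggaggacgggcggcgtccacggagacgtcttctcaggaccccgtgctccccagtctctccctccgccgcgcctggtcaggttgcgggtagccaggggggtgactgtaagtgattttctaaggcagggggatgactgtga
The Cx3cr1 stretch is largely a run of CA repeats and is 44.3% G and C, while the Ccr1 stretch is 67.0% G and C. Both lie in sequence that the deposited annotation calls intergenic. The second set shows, for the Inpp5d and P2ry13 domains, 2 of the widest, and the distal Sall1 domain, the Rpb2 peak with the most reads beyond 1000 bp of a transcription start site (TSS). Capitals mark a PU.1 motif, GAGGAAGT on either strand.
Inpp5d domain, chr1:87625343-87625642: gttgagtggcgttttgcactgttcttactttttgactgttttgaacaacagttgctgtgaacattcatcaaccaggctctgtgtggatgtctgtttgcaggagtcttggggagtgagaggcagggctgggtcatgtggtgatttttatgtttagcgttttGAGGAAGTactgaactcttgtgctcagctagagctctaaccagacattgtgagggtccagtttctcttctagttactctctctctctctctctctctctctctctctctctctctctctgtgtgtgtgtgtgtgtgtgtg
P2ry13 domain, chr3:59205184-59205483: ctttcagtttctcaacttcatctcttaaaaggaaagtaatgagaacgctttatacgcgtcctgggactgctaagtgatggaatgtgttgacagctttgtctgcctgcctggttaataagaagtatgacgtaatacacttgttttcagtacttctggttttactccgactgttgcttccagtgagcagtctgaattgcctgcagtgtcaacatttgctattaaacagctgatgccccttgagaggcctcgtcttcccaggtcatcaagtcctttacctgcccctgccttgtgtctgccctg
Sall1 distal domain, chr8:89404229-89404498: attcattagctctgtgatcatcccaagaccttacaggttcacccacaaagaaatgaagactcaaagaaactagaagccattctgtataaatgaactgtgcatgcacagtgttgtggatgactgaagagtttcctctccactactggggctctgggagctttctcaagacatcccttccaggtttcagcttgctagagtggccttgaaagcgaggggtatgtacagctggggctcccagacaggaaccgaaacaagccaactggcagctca
Among these 3 elements, the Inpp5d stretch alone held the PU.1 motif. Motifs over all Rpb2 peaks of the domains are given further on.

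The domains were 10007 to 62893 bp wide, with a median of 12964 bp. They covered 9.22 Mb, 10.7% of the length of all H3K27ac peaks. At least 15000 bp were reached by 204 domains, 20000 bp by 91, 30000 bp by 24 and 40000 bp by 7. All domains had been found in both the WT and the KO peak list. So had 99.9% of H3K27ac peaks of 5 kb to under 10 kb, against 37.7% of all H3K27ac peaks. According to the peak identifiers each merges between 2 and 12 separate calls, with a median of 4. On the autosomes lay 591 domains and on the X chromosome 12. Just inside the threshold were the domains nearest to *Olfr1423* (10007 bp), *Mir687* (10030 bp) and *Pld1* (10033 bp). Just outside were peaks nearest to *Tbc1d22a* (9995 bp), *A230009B12Rik* (9971 bp) and *Hmox2* (9960 bp).

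**Figure D1:**
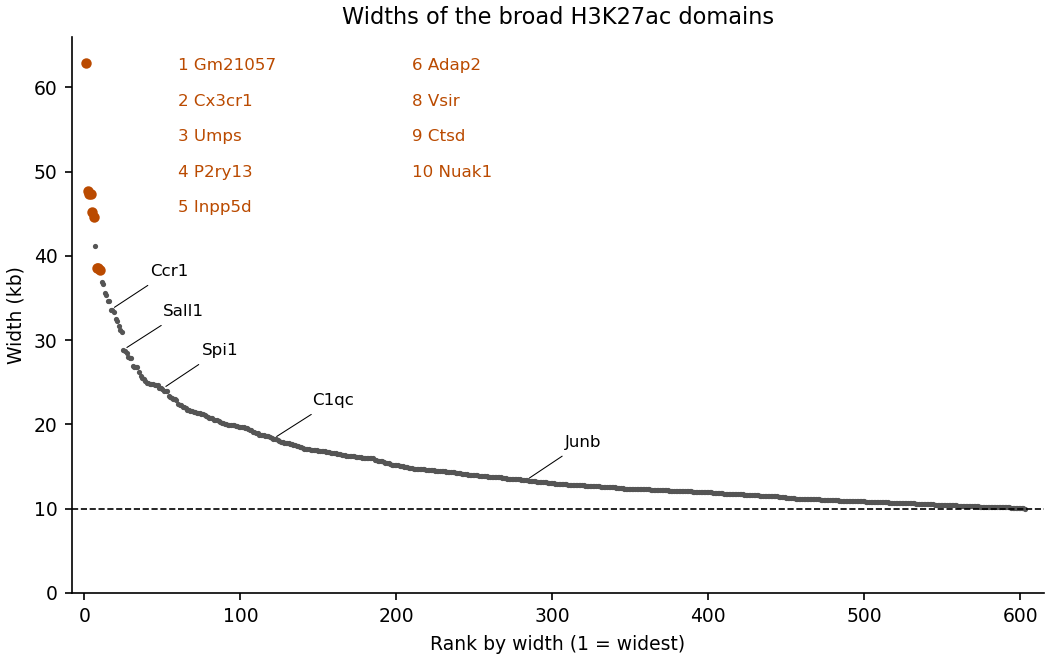
Width of each of the 603 domains in kb (vertical axis) against its rank by width (horizontal axis), with 9 of the 10 widest in orange and listed by nearest gene. The dashed line is the 10-kb threshold, and widths fall steeply from 62893 bp to about 20000 bp over the first 91 ranks and slowly after that.

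The widest domain, chr7:80023106-80085998, is annotated to the predicted gene *Gm21057* but holds the TSS of *Zfp710*, a zinc finger gene. It spans 62893 bp. The domain at *Cx3cr1* was second at 47717 bp (chr9:120026314-120074030) and holds the TSS of that gene. A domain nearest to *Umps*, a pyrimidine synthesis gene, followed at 47350 bp without any protein-coding TSS. *P2ry13*, which encodes an ADP receptor, had a domain of 47325 bp (chr3:59200920-59248244) that also runs into the body of *P2ry12*, the ADP receptor by which microglia sense injury, without reaching its TSS. The domains at *Inpp5d*, the SHIP1 lipid phosphatase, and *Adap2*, a regulator of Arf GTPases, spanned 45173 and 44627 bp. *Vsir*, the VISTA immune checkpoint, had 38596 bp, *Ctsd*, the lysosomal protease cathepsin D, 38497 bp, and *Nuak1*, an AMPK-related kinase, 38273 bp. The Ctsd and Adap2 domains each hold the TSSs of 3 protein-coding genes.

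The centre of 402 domains lay in an intron (66.7%, against 46.1% of all peaks), of 126 in intergenic sequence (20.9% against 35.5%) and of 32 at a promoter (5.31% against 11.3%). A protein-coding TSS of GENCODE M21 lay inside 255 domains, which together held 304 of 21951 genes, while 348 domains held none. More than 1 TSS was held by 39 domains. The domain at the complement genes *C1qa*, *C1qb* and *C1qc* (18291 bp) spans all 3 of their TSSs. A domain of 31141 bp annotated to *Iscu* holds the TSS of *Tmem119*, a membrane protein used to tell microglia from other macrophages. The domains had 526 nearest genes, 3.10% of the 16945 that all peaks have. Of these, 68 had at least 2 domains. *Frmd4a*, a scaffold protein gene, *Gpr34*, a lysophospholipid receptor gene of microglia, and *Zfhx3*, a homeobox factor gene, had 4 each, and *Apbb1ip*, *Lgmn* and *Wasf2* had 3 each. A further domain lay within 50000 bp for 186 domains.

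Genes of microglial identity had a domain more often than protein-coding genes at large, given here as counts without a test. Of the 24 genes of a microglia signature list, 18 (75%) were the nearest gene of a domain or had their TSS in one, against 2.40% of 21924 protein-coding genes and 3.42% of those with any H3K27ac peak. They included *Cx3cr1*, *P2ry13*, *Tmem119*, *Fcrls*, *Tgfbr1*, *Gpr34*, *Siglech*, *Sall1*, *C1qa*, *C1qb*, *C1qc*, *Ctss*, *Golm1*, *Adgrg1*, *Selplg*, *Cd33* and *Crybb1*. Counting any overlap of the gene body raised this to 20 (83.3%, against 2.55% of protein-coding genes) by adding *P2ry12* and *Csf1r*, the receptor that microglia need to survive. The domain inside *Csf1r*, 26759 bp wide with 20 Rpb2 peaks, is annotated to *Mir6983*, and the Csf1r TSS itself lay in a separate peak of 7259 bp.

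Among 20 transcription factors of microglia and myeloid cells, 11 (55.0%) had a domain. *Spi1*, which encodes PU.1, had 24222 bp around its TSS with 15 Rpb2 peaks. *Sall1*, a factor that keeps microglial identity, had 2 domains, one of 22295 bp over its TSS with 22 Rpb2 peaks and a wider one of 28853 bp whose centre lay at −352840 bp from the TSS, with 5. *Irf8*, needed for microglial development, had 17917 bp over its TSS with 12 Rpb2 peaks and a second domain of 10874 bp downstream with 0. Other factors with a domain included *Mef2a*, *Mef2c*, *Maf*, *Fli1*, *Etv5*, *Smad3* and *Ikzf1*. Of 14 annotated genes of the TGF-beta pathway, on which microglial identity depends, 7 (50%) had one. These were both receptors, *Tgfbr1* and *Tgfbr2*, with 2 domains each, the signal transducer *Smad3*, the inhibitors *Smad7*, *Ski* and *Skil*, and the target *Zeb2*.

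Lysosomal genes followed with 7 of 20 (35.0%), among them *Ctsb*, *Ctsd*, *Ctss*, *Lgmn*, *Laptm5* and *Psap*. Chemokine, cytokine and receptor genes had 5 of 25 (20.0%), among them *Ccr1*, *Il1a* and the IL-10 receptor gene *Il10ra*. The disease-associated microglia list had 4 of 20 (20.0%), *Tyrobp*, *B2m*, *Ctsb* and *Ctsd*. NF-kB subunits and inhibitors had 2 of 12 (16.7%), *Nfkb1* and *Nfkbid*. AP-1 and immediate-early genes had 3 of 20 (15.0%), *Junb*, *Egr1* and the mRNA decay factor gene *Zfp36*. Antigen presentation had 1 of 12 (8.33%), *B2m*. Housekeeping genes had 2 of 12 (16.7%), *Actb* and *Rplp0*, so by this measure the smaller shares lie no higher than in this comparison list. By overlap of the gene body only *Actb* counted (8.33%). That measure gave 16.7% for NF-kB, 15.0% for AP-1 and immediate-early genes and 8.33% for antigen presentation. Lists share members, and genes of 1 domain, such as those of C1q, are counted separately.

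Markers of other cell types came next, and no depletion is read from them, since only 2.40% of protein-coding genes had a domain. None of 12 neuron, 10 endothelial, 10 lymphocyte, 10 monocyte and neutrophil, and 8 border-associated macrophage markers had a domain. One of 10 astrocyte markers, *Slc1a3*, a glutamate transporter gene, had 2 intronic domains of 12006 and 11709 bp. One of 10 oligodendrocyte markers, *Mbp*, had an intronic domain of 11172 bp. Neither held the TSS of the marker.

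In H3K27ac level, the domains differed among themselves by several fold. The mean over the 4 libraries ran from 6.79 CPM per kb at a domain of *Ldlrad4* to 52.2 at Ccr1. The Ccr1 domain had 22.9, 38.9, 75.8 and 71.3 CPM per kb, so that it stood highest through the KO pools alone. Next came C1q with 44.3 and *Junb*, an AP-1 subunit gene, with 40.4. At C1q the level was 36.5, 47.6, 47.3 and 45.7 CPM per kb, above Ccr1 in both WT libraries. The WT female library was lowest, and the other 3 lay close together. The Inpp5d domain showed the same order, with 24.9, 38.8, 37.6 and 38.0 CPM per kb. Over all domains the WT female library was the lowest of the 4 at 567 (94.0%). The median domain had 15.2, 21.4, 20.9 and 21.1 CPM per kb. The median H3K27ac peak of 5 kb to under 10 kb was likewise lowest there, with 12.6, 16.9, 16.7 and 16.6 CPM per kb. Over all H3K27ac peaks the median was 8.46, 3.94, 3.94 and 4.17 CPM per kb, highest in the WT female library. This is the library with 15.9% of its reads in peaks, and what that low share contributes to the domain levels was not tested.

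**Figure D2:**
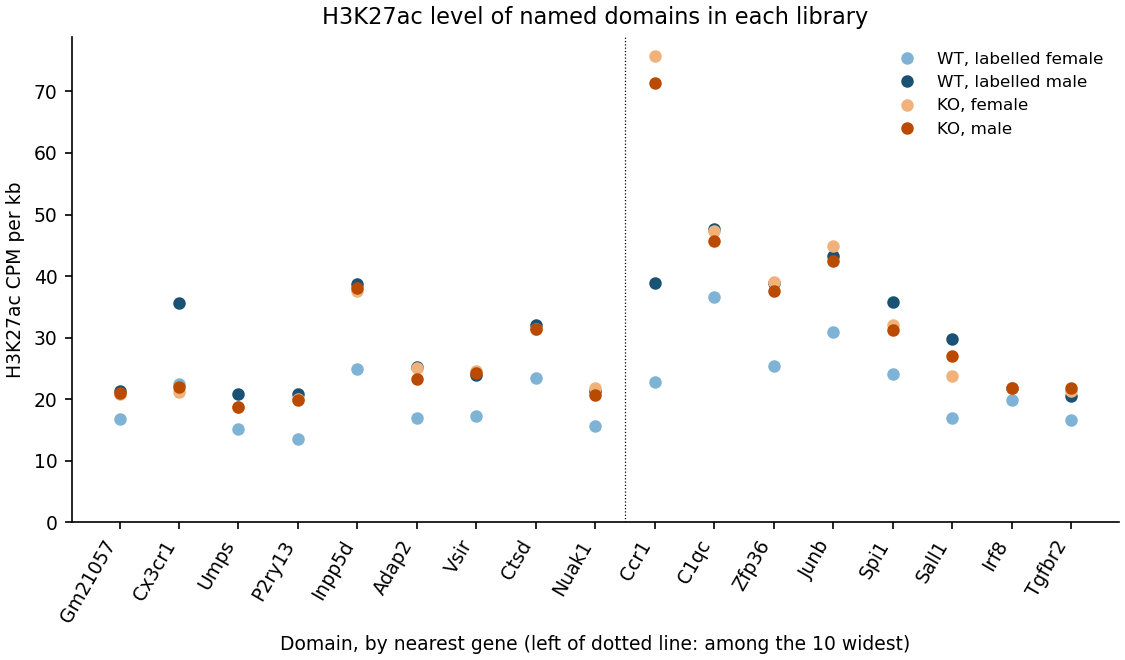
H3K27ac level in CPM per kb (vertical axis) of 9 of the 10 widest domains and 8 others, by nearest gene, with 1 point per library. The WT female library (light blue) is the lowest at nearly all of them, the Ccr1 domain is higher in both KO pools, and at Cx3cr1 the WT male library stands above the other 3.

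Of all H3K27ac reads in peaks, the domains held 15.4% and 20.5% in the WT pools and 19.9% and 20.0% in the KO pools. Means were 17.9 ± 3.64% in WT and 20.0 ± 0.0731% in KO (SD, n = 2), and the WT pools lay on both sides of the KO pools. The exact permutation test, two-sided, gave p = 1, where the smallest p that 2 pools against 2 allow is 0.333.

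Rpb2 was found in nearly every domain. The centre of at least 1 Rpb2 peak lay in 589 of 603 domains (97.7%), against 83.3% of H3K27ac peaks of 5 kb to under 10 kb and 22.9% of all H3K27ac peaks. In total the domains held 3314 of 26706 Rpb2 peaks (12.4%), with a median of 4 per domain and at most 37. Wider regions hold more peaks by their length alone. Per 10 kb, however, the domains held 3.59 Rpb2 peaks, against 2.74 in that class and 2.32 in all H3K27ac peaks. The domains of at least 20000 bp held 4.31. Within the domains, width and the number of Rpb2 peaks had a Spearman coefficient of 0.467 across 603 regions, which share the same libraries and are not replicates.

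Rpb2 reads per length were also higher in the domains in each library. Scaled to length, Rpb2 reads in peaks amounted to 16.2, 16.4, 16.0 and 16.3 CPM per kb. In H3K27ac peaks of 5 kb to under 10 kb the values were 13.4, 13.5, 12.99 and 13.2 CPM per kb. The difference of 2.96 ± 0.110 CPM per kb (SD, n = 4) had the same sign in 4 of 4 libraries. An exact paired permutation test over the 4 libraries gave p = 0.125, two-sided, which is the smallest p it can give and 1 of 3 such comparisons (adjusted p = 0.125).

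**Figure D3:**
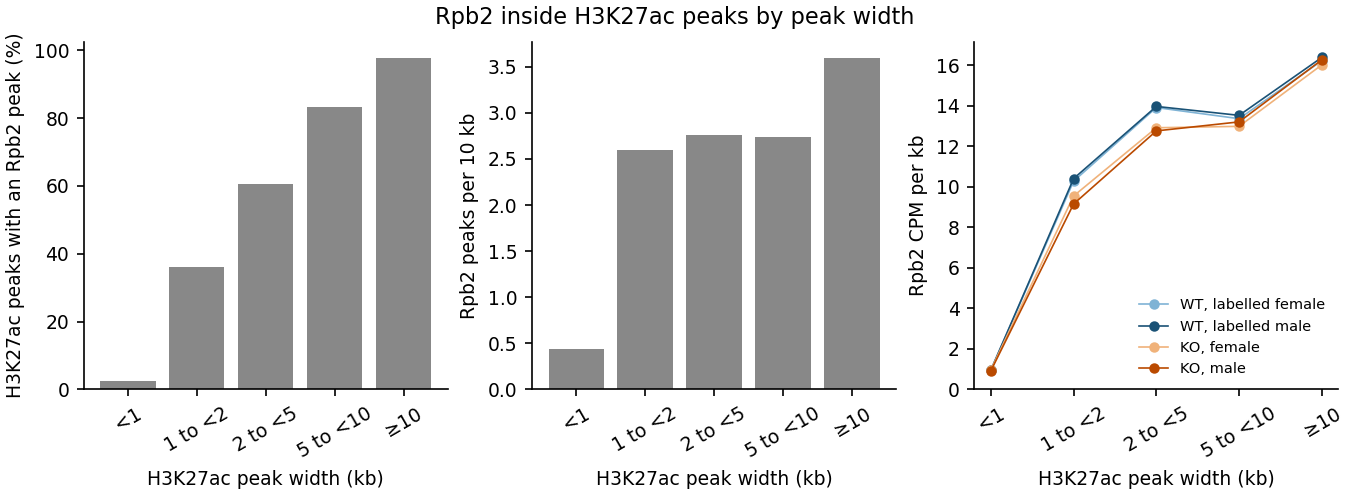
Left, share of H3K27ac peaks that contain the centre of an Rpb2 peak; middle, Rpb2 peaks per 10 kb; right, Rpb2 CPM per kb in each of the 4 libraries, all by width class of the H3K27ac peak in kb. Each measure is highest in the class of at least 10 kb, where 97.7% hold an Rpb2 peak.

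Most Rpb2 peaks inside domains lay away from gene starts. Only 16.4% were within 1000 bp of a TSS, against 56.0% of the Rpb2 peaks in narrower H3K27ac peaks, and 61.4% lay in introns, against 27.8%. The inner stretch of the domains, leaving out 25% of the length at each end, held 54.5% of them. The median Rpb2 peak within 1000 bp of a TSS had 65.8 ± 5.92 CPM in domains and 41.5 ± 3.19 CPM in narrower peaks (SD, n = 4 libraries). Beyond 1000 bp the medians were 25.3 ± 0.787 and 22.04 ± 0.431 CPM (SD, n = 4). Both differences had the same sign in 4 of 4 libraries (exact paired permutation p = 0.125 each, the smallest possible). Over all positions, however, the median Rpb2 peak in domains had 28.8, 28.3, 28.0 and 29.6 CPM. This was below the 31.9, 32.3, 31.3 and 32.0 CPM in H3K27ac peaks of 5 kb to under 10 kb.

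Among the domains with the most Rpb2 peaks were those of Gm21057 and Zfp710 with 37, Inpp5d with 32, P2ry13 with 29 and Adap2 with 28. Summed over the peaks at Inpp5d, Rpb2 reads were 1429, 1394, 1471 and 1709 CPM. Both KO pools lay above both WT pools, without passing adjustment (log2 fold change 0.17, SE 0.10, adjusted p = 0.564 in edgeR's quasi-likelihood test).

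No Rpb2 peak was centred in 14 domains, none of which held a protein-coding TSS. They include the second Irf8 domain, 1 of the 2 *Mef2a* domains (13479 bp), the wider *Tmsb4x* domain (21291 bp) and a domain of *Etv6*. The Mef2a domain had 16.4, 22.1, 21.5 and 21.9 CPM per kb of H3K27ac, close to the median domain. These domains were picked out after their values were seen.

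Sequence motifs were counted in 300-base windows on the Rpb2 peaks beyond 1000 bp of a TSS, on both strands and with overlaps between motifs allowed. The PU.1 motif GAGGAAGT was in 7.87% of 2769 windows in domains, 10.1% of those in narrower H3K27ac peaks and 6.53% of all such windows. The AP-1 motif TGANTCA was in 9.71%, 9.23% and 8.90%, the IRF motif GAAANNGAA in 9.17%, 11.0% and 9.28%, and the MEF2 motif CTANNNNTA in 24.1%, 21.9% and 25.5%. Median G and C content was 50%, 51.3% and 49.7%. Outside H3K27ac peaks the PU.1 motif was in 1.84% of windows and CTANNNNTA in 30.2%. The PU.1 share of the domains therefore lay above the windows outside H3K27ac peaks and below those in narrower peaks. No test was made, and a match is a description of the letters only.

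The study asked whether loss of *Cx3cr1* changes the active chromatin of microglia, and for the domains this is the comparison of KO with WT. In H3K27ac reads, 0 of 603 domains passed an adjusted p of 0.05 in edgeR's quasi-likelihood test, against a background of 0.0233% of 55798 peaks (13 peaks). Before adjustment, 2 domains had a p under 0.05 with more H3K27ac in KO (background 1.35%) and 0 with less (background 3.6%). DESeq2 called 1 domain and limma voom 2, against 240 and 7 of all 55798 tested peaks. Both KO pools lay above both WT pools at 158 domains (26.2%, background 14.3%) and below at 5 (0.829%, background 13%). The median log2 fold change of the domains was 0.19, against −0.21 over all tested peaks, and 557 of 603 were above 0. This direction rests on the WT female library. Without it the median was −0.05, against 0.14 over all tested peaks. Without the WT male library the median was 0.47, against −0.27 over all tested peaks. With 1 WT pool left, the spread comes from the KO pools alone and the lone WT pool is assumed to vary like them. With loess offsets, which correct a trend with level, the median was −0.02, and scaling to the total reads of each library gave 0.74, where the median of all peaks also moved, to 0.53. No direction is therefore given for the domains as a group.

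**Figure D4:**
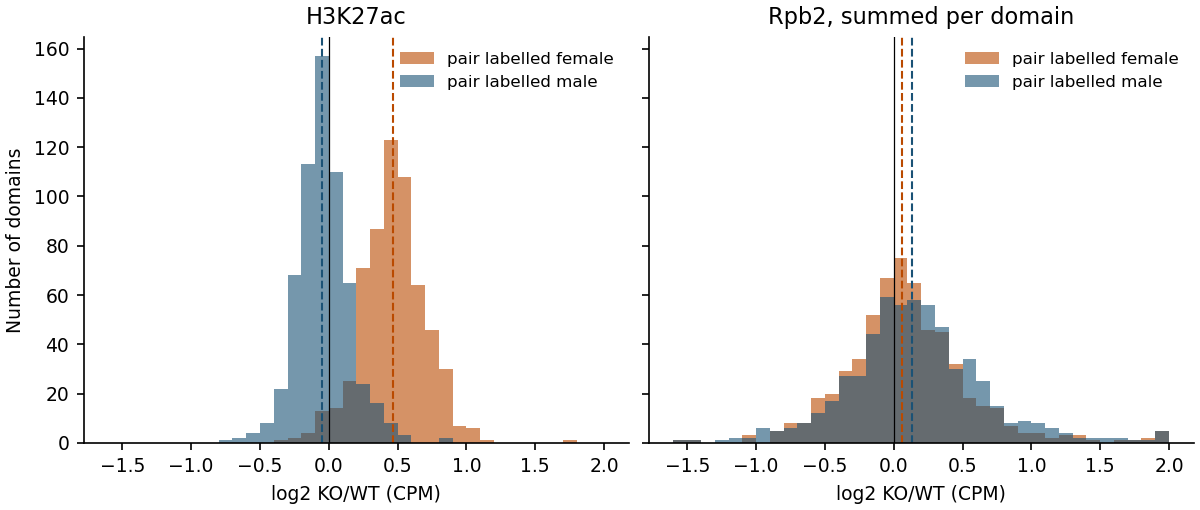
Number of domains (vertical axis) by log2 ratio of KO to WT (horizontal axis, values beyond the ends counted in the last bin) for the pair of libraries labelled female (orange) and the pair labelled male (blue), with dashed lines at the medians. For H3K27ac the female pair centres at 0.47 and the male pair at −0.05, while for Rpb2 the pairs overlap.

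The 2 ends of the range of H3K27ac fold changes both lay on chromosome 9, which holds 32 of the domains. The highest was at the domain of *Ccr1*, a receptor for inflammatory chemokines (chr9:123922966-123956576, 33611 bp, intergenic), and the lowest at the Cx3cr1 domain 3.85 Mb away. Of the 13 H3K27ac peaks called among all peaks, 5 lay on chromosome 9, all between *Ctdspl* and *Cxcr6* (chr9:118821868-123803410). That span holds the Cx3cr1 domain with the disrupted allele. What position near that allele contributes to these differences was not tested. The Ccr1 domain had 769, 1308, 2546 and 2397 CPM. Both KO pools lay above both WT pools, in the female pair and in the male pair alike. The log2 fold change came to 1.25 (SE 0.46, adjusted p = 0.811 in edgeR's quasi-likelihood test), and over 17 alternatives it ran from 0.91 to 1.75. With all pools it passed adjustment under loess offsets, DESeq2 and limma voom. It was 0.91 without the WT female library and 1.69 without the WT male library, and passed in both, where the spread is that of the KO pools alone. The TSS of Ccr1 lay outside the domain, in a separate peak of 501 bp. In pooled cells, a change in all cells and a change in some of them cannot be told apart.

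The Cx3cr1 domain had 1071, 1697, 1008 and 1047 CPM. The KO pools lay below both WT pools, narrowly below the female one. KO was lower by a log2 fold change of −0.43 (with SE 0.42 and adjusted p = 0.889 in edgeR's quasi-likelihood test). It passed adjustment with loess offsets (−0.68) and with limma voom (−0.51), and was 0.09 when scaled to total reads. Its size rests on the WT pool kept, being −0.73 and past adjustment without the WT female library and −0.060 without the WT male library, with the spread of the KO pools alone. The disrupted allele lies inside this domain, so a change of the acetylation and the altered sequence of the locus cannot be told apart here.

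After Ccr1 the lowest p values belonged to domains that were higher in KO but past no adjusted threshold. The domain of *Tsc22d3*, a glucocorticoid-induced gene on the X chromosome, had 77.4, 91.7, 139 and 125 CPM. The groups did not overlap (log2 fold change 0.64, SE 0.30, adjusted p = 0.811 by edgeR). *Havcr2*, the TIM-3 checkpoint gene, had 145, 169, 242 and 232 CPM (0.59, SE 0.31), again without overlap. *Gng10*, a G protein subunit gene, had 180, 244, 330 and 318 CPM (0.61, SE 0.32). The others were domains of *Apbb1ip* (0.58), *Fndc7* (0.54), *Evi2b* (0.57), *Nipa2* (0.53), *Tjp1* (0.50) and *Cyfip1* (0.48), with SEs of 0.30 to 0.34 and the same adjusted p of 0.811. In each of these 9 the WT female library was the lowest of the 4. Without it the log2 fold change was 0.51 at Tsc22d3, 0.48 at Havcr2, 0.40 at Gng10 and 0.16 to 0.41 at the other 6.

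The Spi1 and the distal Sall1 domains showed no such separation. The Spi1 domain had 583, 867, 777 and 757 CPM, and its log2 fold change of 0.08 had an SE of 0.38 (adjusted p = 1 by edgeR). The distal Sall1 domain had 491, 857, 685 and 778 CPM (0.12, SE 0.38). In both domains the KO pools lay between the WT pools. Both fold changes turned below 0 with loess offsets and without the WT female library.

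In Rpb2 reads summed over the peaks of each domain, 0 of 589 domains passed an adjusted p of 0.05 in edgeR's quasi-likelihood test, against a background of 0% of 12784 H3K27ac peaks with an Rpb2 peak. Before adjustment, 49 domains had a p under 0.05 with more Rpb2 in KO (8.32%, background 5.01%) and 18 with less (3.06%, background 5.29%). Both KO pools lay above both WT pools at 189 domains (32.1%, background 22.2%) and below at 76 (12.9%, background 20.2%). The median log2 fold change was 0.11, against 0.02 over all tested sums. DESeq2, edgeR's likelihood ratio test and limma voom called 1 domain each, against 18, 191 and 17 of all 12784 sums.

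At the Cx3cr1 domain, the Rpb2 sum was 3102, 2645, 2416 and 2139 CPM. The KO values were under both WT values (log2 fold change −0.33, SE 0.09, adjusted p = 0.257 in edgeR's quasi-likelihood test), and DESeq2 (−0.35) and limma voom (−0.27) called it. It was −0.087 when scaled to total reads. As for H3K27ac, a change of Rpb2 and the altered sequence of the locus cannot be told apart here. *Bin2*, a membrane-shaping protein gene, had 313, 302, 459 and 473 CPM (0.60, SE 0.16, adjusted p = 0.26 by edgeR). A domain of *Naa20*, an acetyltransferase subunit gene, had 103, 144, 228 and 210 CPM (0.83, SE 0.24). The wider *Nuak1* domain had 279, 380, 450 and 572 CPM (0.63, SE 0.18), and *Nrip1*, a nuclear receptor corepressor gene, had 480, 484, 374 and 257 CPM (−0.61, SE 0.18). In each of these 4 the genotypes did not overlap, and none passed adjustment. At Nuak1 the fold change was 0.40 without the library labelled WT female. At Nrip1 it was −0.36 without the KO male library and −0.91 without the KO female one. The Ccr1 domain, which had the largest difference in H3K27ac, had 385, 408, 393 and 325 CPM of Rpb2 (−0.14, SE 0.17), with pools that overlap. For Spi1 the fold change was 0.19 (SE 0.11) and for the distal Sall1 domain 0.13 (SE 0.24).

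Unlike the sums, single Rpb2 peaks inside domains included some that passed adjustment. Of 3314 peaks, 2 passed an adjusted p of 0.05 in edgeR's quasi-likelihood test, against a background of 0.00749% of 26706 peaks, and these were the only 2 called among all Rpb2 peaks. Both were lower in KO and are the first 2 sequences above. Before adjustment, 187 were higher (5.64%, background 6.12%) and 153 lower in KO (4.62%, background 6.06%). The number of calls moved widely with the libraries and the test. The likelihood ratio test called 78 of the 3314 peaks in domains, against 924 of all 26706. DESeq2 called 99 in domains, against 1022 of all.

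The peak in the Cx3cr1 domain (chr9:120046323-120046820) lies past the 3′ end of the gene, 3601 bp from the centre of the domain. It had 327, 290.3, 35.1 and 50.7 CPM. The difference was several times the spread between pools (log2 fold change −2.86, SE 0.26, adjusted p = 0.00264 in edgeR's quasi-likelihood test), and it held in 12 of 13 alternatives, with an adjusted p of 0.0858 without the KO female library. The TSS peak of the same domain had 287, 304, 262 and 243 CPM (−0.23, SE 0.19) and did not pass adjustment (adjusted p = 0.65 by edgeR). Whether the 2 peaks differ in their change was not tested. Both lie in the domain with the disrupted allele, whose altered sequence and a change of Rpb2 cannot be told apart. That the peak was called in the KO list alone, although its reads were lower in KO, shows that list membership does not give the direction.

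The second called peak lies at the left end of the Ccr1 domain (chr9:123923559-123923877). The WT pools had 54 and 64 reads there and the KO pools 0 each. With the floor set at 3 reads per library, KO was at least 49.0-fold lower, and edgeR's quasi-likelihood test gave an adjusted p = 0.0282. Without the KO female library the adjusted p was 0.238, without the KO male 0.0984 and with limma voom 0.17. Another peak of this domain, at chr9:123928172-123928431, ran the other way with 30.3 and 30.3 CPM in WT and 89.8 and 112.7 CPM in KO (log2 fold change 1.74, SE 0.34, adjusted p = 0.198 by edgeR). This peak was chosen after its values were seen.

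**Figure D5:**
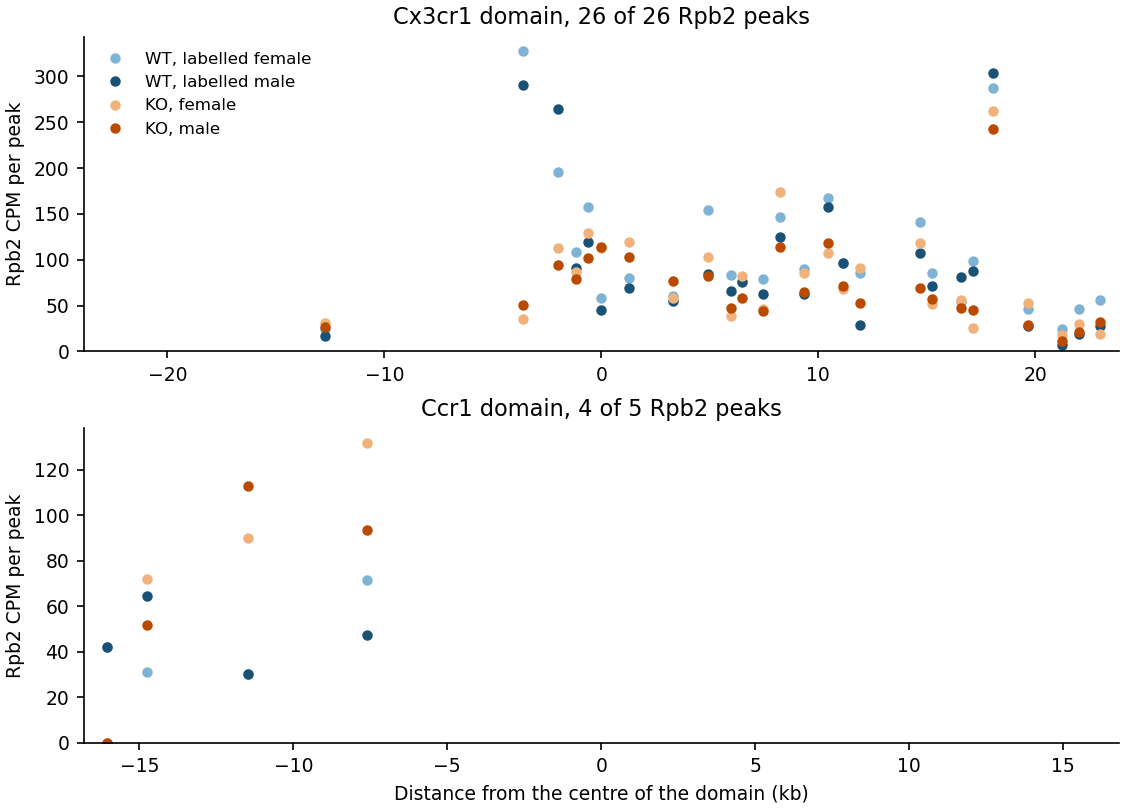
Rpb2 CPM (vertical axis) of the 26 Rpb2 peaks in the Cx3cr1 domain and 4 of the 5 in the Ccr1 domain against distance from the centre of the domain in kb, with 1 point per library. The KO points (orange) lie far below the WT points (blue) at the leftmost strong Cx3cr1 peak and the first Ccr1 peak, and above them further right in the Ccr1 domain.

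Of the 3314 Rpb2 peaks in domains, 1 had 0 reads in both KO pools and 9 had 0 reads in both WT pools. Such peaks were not counted over all Rpb2 peaks, so neither number is read as particular to the domains. The 9 were led by single peaks in domains of *Frmd4a*, *Adora3* and *Mcl1*, at least 6.99-fold, 6.75-fold and 6.37-fold higher in KO against the floor, with none past adjustment (adjusted p = 0.198 by edgeR). They were chosen after their values were seen. The KO libraries held more Rpb2 reads in peaks, 5415932 and 2497192 against 1309593 and 1554998, and 53.9% of the Rpb2 peaks in domains came from the KO list alone, as did 53.0% of all Rpb2 peaks.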

How the data were processed

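H3K27ac and Rpb2 ChIP-seq were measured in 8 libraries; the 4 input libraries were not used here. The authors mapped 51-nt single-end reads to mm10 with Bowtie2, called peaks with HOMER, kept reproducible peaks and merged the WT and KO lists. They deposited raw read counts per peak and library, without normalization. Domains are peaks of at least 10000 bp, and an Rpb2 peak belongs to the domain holding its centre. Counts of all peaks averaging 4 reads or more in either genotype entered edgeR 4.0.16 under R 4.3.3 (TMM, glmQLFit, glmQLFTest, genotype alone, Benjamini-Hochberg over all peaks), checked on simulated data. The common dispersion, a fitted measure of the spread between pools of a genotype, was 1.28 for H3K27ac and 0.133 for Rpb2 peaks. What size of change the test could find at that spread is not given here. Alternatives used DESeq2 1.42.0 and limma 3.58.1, other scalings, filters, widths and overlaps, the labelled sex as a block and each pool left out. For ratios between 2 libraries, a prior count of 2 was added. The newer quasi-likelihood method and limma voom were added after seeing the data. Unused per-sample columns numbered 0.

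The domains and the 17 gene lists were chosen with earlier results of these data known. Named with fold changes are the 10 domains with the lowest p for H3K27ac, the 5 with the lowest p for Rpb2 sums, and those annotated to *Cx3cr1*, *Ccr1*, *Csf1r*, *Spi1* or *Sall1* (none for *Csf1r*). Named by width or reads are the 10 widest, the 3 on each side of the threshold, the 5 with most Rpb2 peaks, the genes of each list that have a domain, and any at a marker of another cell type. Some items that these rules name are not reported here. Others are said to be chosen after their values were seen. Floors of 3 reads cover counting error only, as reads carry no molecular identifiers.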

Additional observations from a re-analysis of the deposited data

Results flagged for a closer look

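Some fold changes pointed in opposite directions in the pair of pools labelled female and the pair labelled male. The difference between the pairs was not tested, since each holds 1 pool per genotype. The median H3K27ac log2 ratio of the 603 domains was 0.47 in the female pair and −0.05 in the male pair, and 583 domains were above 0 in the female pair against 228 in the male pair. The female pair contains the WT library with 15.9% of its reads in peaks. For H3K27ac at Spi1 the ratio was 0.42 in the female pair and −0.20 in the male pair, and at the distal Sall1 domain it was 0.48 and −0.14. For the Rpb2 sum at Ccr1 it was 0.027 and −0.33, and at the distal Sall1 domain 0.45 and −0.18. In Rpb2 the pair labelled female includes the library labelled WT female, whose Y-linked reads go against that label, so these values do not compare the sexes.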

How the results depend on the processing

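The number of domains called for H3K27ac was 0 and was 0 under 12 of the 15 alternatives that keep all pools, whereas loess offsets gave 2, DESeq2 1 and limma voom 2. Leaving out 1 pool at a time gave 0 to 462. In those fits the spread comes from the other genotype alone, so these counts are not read as differences between the genotypes. With all pools, the main count over all 55798 tested peaks was 13. It was 18 with loess offsets, 240 with DESeq2 and 7 with limma voom. The median log2 fold change of the domains (0.19) was 0.74 with total reads and −0.016 with loess offsets. It ran from −0.054 to 0.47 with 1 pool left out, the lowest without the WT female library. For single Rpb2 peaks inside domains the count of 2 became 99 with DESeq2, 78 with the likelihood ratio test, 4 with at least 10 reads in every sample, 22 with the newer quasi-likelihood method and 15 with limma voom, and 0 to 216 with 1 pool left out. The counts with 1 pool left out again rest on the spread of the other genotype. Over all 26706 Rpb2 peaks, DESeq2 called 1022 and the likelihood ratio test 924. The newer quasi-likelihood method called 272 and limma voom 94. With at least 10 reads in every sample, 30 of 19834 were called. For Rpb2 sums the count of 0 became 1 with DESeq2, 1 with the likelihood ratio test and 1 with limma voom. Over all sums these gave 18, 191 and 17. The median number of Rpb2 peaks per domain (4) was 7 for domains of at least 15000 bp and 10 for those of at least 20000 bp. The cause of these changes was not tested, beyond the wider regions in the last.

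With the labelled sex as a replicate block, 0 domains were called for H3K27ac, 3 single Rpb2 peaks and 0 Rpb2 sums. For Rpb2 this block may not adjust for sex, as the library labelled WT female holds Y-linked reads. Over all tested peaks or sums the calls were 12, 4 and 0. The median H3K27ac fold change of the domains was 0.22. Pools of the same number did not deviate together (correlation of deviations −0.00027 for H3K27ac and −0.0076 for Rpb2). With 2 pools per genotype this cannot exclude a pairing by labelled sex. The main fits used genotype alone.

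Among fold changes of named domains, Cx3cr1 H3K27ac was 0.090 with total reads, Spi1 −0.16 with loess offsets and −0.18 to 0.40 with 1 pool left out, and the distal Sall1 domain −0.093 and −0.24 to 0.57, each lowest without the WT female library. The Ccr1 Rpb2 sum was 0.10 with total reads, and the distal Sall1 Rpb2 sum ran from −0.052 without the library labelled WT female to 0.32, with −0.02 without the KO female. The share of reads held by the domains differed by 2.03 percentage points between KO and WT, by 1.25 over peaks of both lists and by 5.10 over all reads.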
